A study of Mus musculus with 2 samples.

Results

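Histone genes were described in mouse regulatory T cells, a Foxp3-dependent kind of CD4 T cell that holds immune responses in check. The genes were the 80 protein-coding genes of the GENCODE M21 annotation whose symbols start with Hist1h, Hist2h, Hist3h, Hist4h, H2af or H3f, together with H1f0 and H1fx, out of 22028 protein-coding and 55536 annotated genes. The rule used names alone and no measured value. It gave 67 genes of the histone clusters and 13 variant genes, and all 80 were found in the deposited gene tables. The clustered genes were 6 for H1, 18 for H2A, 18 for H2B, 12 for H3 and 13 for H4. The variants were 2 for H1, 9 for H2A and 2 for H3.

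The data were polyA plus RNA-seq of 1 group: 2 technical libraries of 1 biological replicate, primary cells of adult male mice of the strain Foxp3CreERT2 x Rosa26YFP aged 4 months. The strain name joins a Foxp3-driven, tamoxifen-inducible Cre with a yellow fluorescent reporter at Rosa26. The labels give no sort, no tamoxifen treatment and no other genotype, do not say whether animals were pooled, and describe the cells as derived from a haematopoietic cell of the bone marrow. Library 1 held 15821875 expected counts on genes and library 2 held 16153671. All 6 regulatory T cell markers were expressed, with Foxp3 at 43.16 TPM in library 1 and 36.22 in library 2. The summed marker levels of CD8 T and NK, B, myeloid, red and stromal cells lay between 1.15 and 8.98 TPM. Of these markers Itgax was at 0 in both libraries, while Cd8a, Klrb1c, Hbb-bs and Epcam had 1 TPM or more in both. Hbb-bs was the highest, at 8.94 TPM in library 1 and 5.71 in library 2. TPM values scale counts by transcript length and library size, so they can be compared between genes. Each ± is the SD of both libraries (n = 2), which is technical. Where a gene had no count, counting error still leaves room for 3 counts, which is 0.19 CPM in library 1 and 0.186 CPM in library 2. This holds for genes with reads of their own, since a maximum likelihood estimate of 0 for a gene that shares reads with others is a division of those reads and not a count of 0.

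H2A, H2B, H3 and H4 form the protein core around which DNA is wrapped, and H1 binds the DNA between cores. The clustered genes are transcribed mainly while DNA is copied, and their mRNAs normally end just after a short stem-loop that the protein Slbp binds, without a poly(A) tail. Variant genes mostly lie outside the clusters, are transcribed through the cell cycle, and their mRNAs mostly carry a poly(A) tail as those of other genes do. A library selected for poly(A) therefore samples the 2 kinds differently, and the levels of clustered genes below are levels of the mRNA that passed this selection. In bulk RNA, fewer cells with a transcript and less of it in each cell cannot be told apart.

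The stem-loop is shown because it is the feature that sets the 2 kinds of mRNA end apart. A stem of 6 perfect base pairs was searched for on the sense strand downstream of the stop codon. The stem had to start with GG and close with a T-A pair, around a loop of 4 bases starting with TT. It was found in 44 of the 67 clustered genes and in 1 of the 13 variants, H2afx. Searched anywhere in a transcript, it was in 45 of the 80 histone genes and in 26 of 21871 other protein-coding genes (0.119%). Over all 21951 protein-coding genes with transcript sequences that is 71 (0.323%). In the histone genes it started 21 to 58 bases after the stop codon, with a median of 31. There were 7 kinds of this 16-base element, and 26 histone genes had the same one. Examples follow from the GENCODE M21 transcripts (mm10), 5′ to 3′ in transcript direction, with the stem and loop in capitals:
Hist1h1c (chr13:23739507-23739532, plus strand): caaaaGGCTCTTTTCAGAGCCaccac
Hist1h2ap (chr13:21833026-21833049, minus strand): aaaaaGGCTCTTTTCAGAGCCatc
Hist1h4d (chr13:23581945-23581970, plus strand): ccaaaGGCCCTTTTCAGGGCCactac
Hist2h4 (chr3:96262934-96262959, minus strand): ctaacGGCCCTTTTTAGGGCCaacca
H2afx (chr9:44335235-44335260, plus strand): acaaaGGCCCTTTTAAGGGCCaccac
The first kind, shared by Hist1h1c and Hist1h2ap here, was found in H1, H2A, H2B and H3 genes. All 11 H4 genes with the element had kinds that no clustered gene of another type had, as in Hist1h4d and Hist2h4. H2afx, the variant that is phosphorylated at DNA breaks, had the element 46 bases after its stop codon, and its annotated transcript runs 822 bases further.

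The transcript of Hist1h2ap ends 3 bases after the stem-loop, as the sequence above shows, whereas other clustered genes have annotated transcripts that run on. Of the 67 clustered genes, 25 had a transcript reaching more than 50 bases past the stem-loop, 19 ended within 50 bases of it and 23 had no stem-loop in their gene model. In 15 of those 23 the annotated 3′ UTR has at most 2 bases, so the model stops before a stem-loop could lie in it. The genes nearest the 50-base limit were Hist1h3b, at 51 bases, and Hist1h4h and Hist1h2bm, both at 46. The sequence AATAAA, the common signal for cleavage and poly(A) addition, lay in the last 50 bases of a transcript in 15 of 67 clustered and 9 of 13 variant genes. It is shown in capitals for 3 variants with high levels and for 2 clustered genes with extended transcripts:
H2afz (chr3:137866790-137866818, plus strand): gtggataagctcAATAAAggtcatatccc
H3f3b (chr11:116021987-116022016, minus strand): ataggccttacaAATAAActagtaagtttg
H2afv (chr11:6427240-6427269, minus strand): caaatgcacagaAATAAAgaaactagcact
Hist3h2a (chr11:58956785-58956814, plus strand): aggtatatgcccAATAAAataagagtacgt
Hist2h4 (chr3:96261697-96261726, minus strand): tcgtatacataaAATAAAatcttaaaaaca
In Hist2h4 the annotated end thus lies 1257 bases past its stem-loop and in Hist3h2a 1643 bases past it. In all transcripts 62 of 67 clustered genes had a single exon, against 6 of 13 variants.

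Histone mRNA in these libraries came mostly from variant genes. The 13 variants summed to 3084 TPM in library 1 and 3133 in library 2, and the 67 clustered genes to 330.7 and 331.1 TPM. Variants thus held 90.4% of the histone TPM, 9.33 times the clustered sum in library 1 and 9.46 times in library 2. By counts, variants held 0.248% of all counts in library 1 (95% exact Clopper-Pearson interval 0.246 to 0.251%) and 0.26% in library 2 (0.257 to 0.262%). Clustered genes held 0.0165% (0.0159 to 0.0172%) and 0.0171% (0.0165 to 0.0178%). The intervals cover counting error only. The ranges of the 2 kinds did not overlap on either scale, and the gap was far larger than the SD between libraries, 34.5 TPM for the variant and 0.262 TPM for the clustered sum. In the whole-number counts of the smaller gene table the variants' share was 0.052% and the clustered share 0.0166%, so that gap was smaller there.

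**Figure D1:**
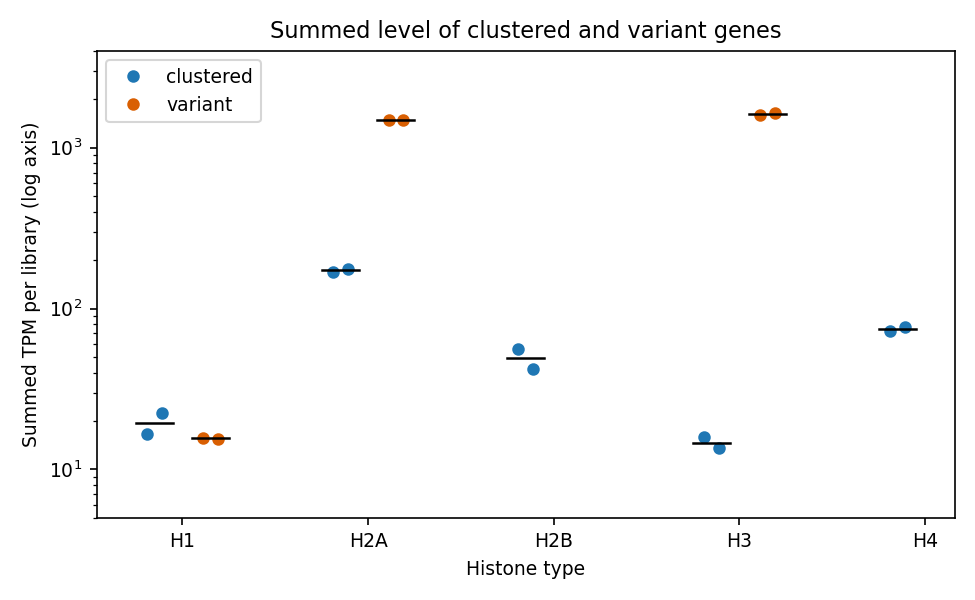
Summed TPM of clustered (blue) and variant (orange) genes for each histone type on a log axis; points are the 2 libraries and the black line is their mean. Variants lie far above clustered genes for H2A (1479 against 173.4 TPM) and H3 (1614 against 14.69 TPM), while H1 is close (15.62 against 19.51 TPM) and H2B and H4 have no variant gene here.

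The excess of variants differed by histone type. For H3, variants summed to 1614 ± 41 TPM and clustered genes to 14.69 ± 1.68 TPM, a ratio of 99.8 in library 1 and 122 in library 2. This variant sum takes in H3f3b-204, a transcript annotated without a coding sequence, at 732.96 and 742.84 TPM. For H2A the sums were 1479 ± 6.22 and 173.4 ± 5.4 TPM, with ratios of 8.75 and 8.32. For H1 the order was the other way, with 15.62 ± 0.198 TPM from variants and 19.51 ± 4.01 TPM from clustered genes and ratios of 0.945 and 0.693. The H1 difference was no larger than the clustered SD. H2B and H4 had clustered genes only, which summed to 49 ± 10.2 TPM and 74.31 ± 2.75 TPM. No test was made of these ratios, since members of a type are not replicates.

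Of the 80 genes, 43 were expressed, meaning 1 TPM or more in both libraries, beside 46.5% of all protein-coding genes. They were 35 of 67 clustered genes (52.2%) and 8 of 13 variants (61.5%). The clustered share lay near the share of all protein-coding genes, so being expressed did not set these genes apart. The median level was 2.14 TPM over all clustered and 15.6 TPM over all variant genes, against 0.625 TPM over protein-coding genes. The clustered median was 1.74 TPM in library 1 alone and 1.58 in library 2 alone. An estimate of 0 in both libraries was given to 17 genes, 14 clustered and 3 variant.

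**Figure D2:**
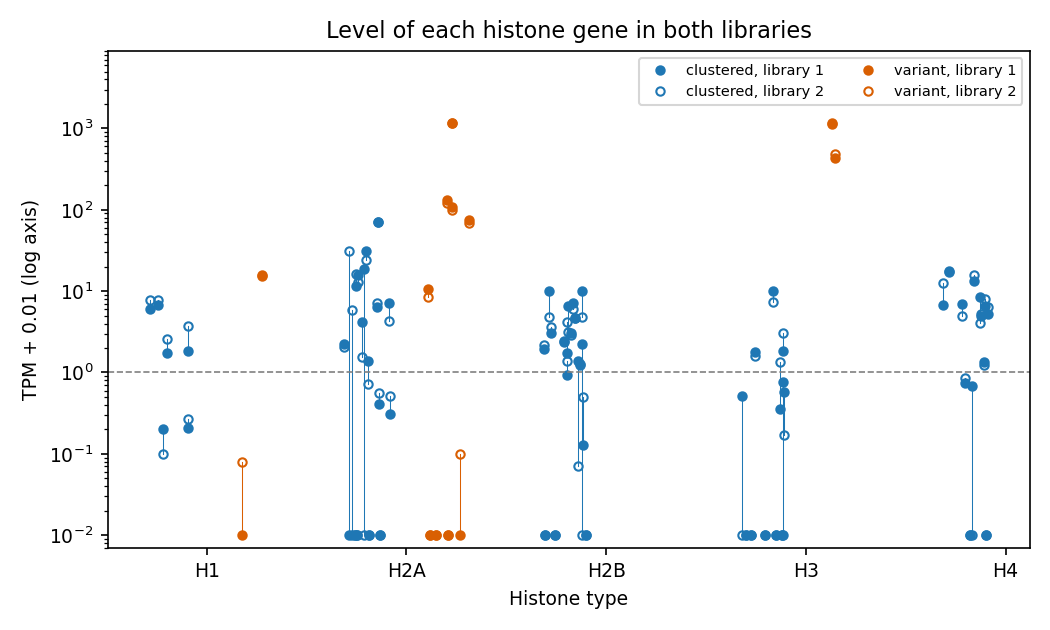
TPM + 0.01 (log axis) of each of the 80 genes by histone type, with library 1 as filled and library 2 as open points joined by a line, clustered genes in blue and variants in orange; the dashed line marks 1 TPM. The 3 highest genes are variants above 437 TPM, and no clustered gene exceeds 70.29 TPM.

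Among the variants, H2afz had the highest level. It encodes H2A.Z, which replaces H2A near promoters (ENSMUSG00000037894.13, mm10 chr3:137864487-137866922, plus strand). It stood at 1156.98 TPM in library 1 and 1176.10 in library 2, rank 98 among protein-coding genes. Its sister gene H2afv, which encodes a close relative of H2A.Z, had 133.42 and 121.71 TPM. The level of H2afz was thus far above that of H2afv in each library of this table. In the smaller gene table, described further on, the order of the counts was the reverse, with 42 and 44 for H2afz and 433 and 421 for H2afv.

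H3f3b and H3f3a encode the same protein, H3.3, which is placed into chromatin outside DNA replication. H3f3b (ENSMUSG00000016559.14, chr11:116021912-116027962, minus strand) had 1147.94 TPM in library 1 and 1161.30 in library 2, rank 99. H3f3a (ENSMUSG00000060743.12, chr1:180800832-180813943, minus strand) had 437.02 and 481.59 TPM, rank 234. At gene level H3f3b was above H3f3a in both libraries, by far more than the spread of either. Most of the H3f3b level was in H3f3b-204, annotated without a coding sequence, at 732.96 TPM in library 1 and 742.84 in library 2. The coding H3f3b-201 had 377.93 and 396.31 TPM, below the gene level of H3f3a in both libraries. It was above H3f3a-201, the main coding transcript of H3f3a, which had 326.54 TPM in library 1 and 355.73 in library 2. The order of H3f3b and H3f3a thus depends on which transcripts are compared. H2afz and H3f3b did not differ beyond their spread, at 1167 ± 13.52 and 1155 ± 9.447 TPM.

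Next stood H2afy, which encodes the large variant macroH2A1 found in silent chromatin, with 108.75 TPM in library 1 and 100.01 in library 2. H2afj, a replication-independent H2A gene on chromosome 6 near Hist4h4, had 73.87 and 68.54 TPM. H1f0, the linker histone of resting and differentiated cells, had 15.76 and 15.41 TPM. H2afx had 10.60 and 8.37 TPM. In the order H2afv, H2afy, H2afj, H1f0 and H2afx no neighbours overlapped between libraries. The remaining 5 variants were near or at 0. H2afy2, the second macroH2A gene, had 0 and 0.09 TPM, and H1fx had 0 and 0.07 TPM. H2afb1, H2afb2 and H2afb3, which encode a short H2A known from the testis, were at 0 in both libraries.

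The transcript estimates split the levels of these variants unequally. H2afy-202 held 65.7 ± 1.92% of the TPM of H2afy and H2afy-201 held 24.3 ± 3.18%. These transcripts share the histone part and differ by alternative coding exons: H2afy-202 uses a 91-base exon at chr13:56088252-56088342, and H2afy-201 a 100-base exon at chr13:56089758-56089857. H2afz was split between H2afz-207, with 50.2 ± 0.01%, and H2afz-201, with 48.2 ± 0.18%, whose 3′ UTRs are 371 and 475 bases long. In H3f3a, 74.3 ± 0.6% was in H3f3a-201. In H3f3b, 63.9 ± 0.08% was in H3f3b-204, annotated as a processed transcript without a coding sequence, and 33.5 ± 0.86% in the coding H3f3b-201. H2afj-202, which is spliced, held 80.4 ± 2.24% of H2afj, and H2afv-201 held 82.4 ± 1.13% of H2afv. These shares are the authors' estimates from short reads.

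The clustered genes lay in 5 places, and each held expressed genes. The larger Hist1 stretch (chr13:23531050-23934851) had 31 genes with 14 expressed, and the smaller one (chr13:21715763-22043676) had 23 with 11 expressed. The Hist2 genes (chr3:96219865-96270132) were 10 with 7 expressed. Both Hist3 genes on chromosome 11 and the single Hist4 gene on chromosome 6 were expressed. The summed level was 252.3 ± 4.52 TPM for Hist1, 67.31 ± 5.2 for Hist2, 10.07 ± 1.03 for Hist3 and 1.285 ± 0.0778 for Hist4.

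Clustered levels have to be read beside how much sequence the genes share. For each gene, the percent of 50-base transcript windows that also occur in another gene's transcripts was counted, and such windows are called shared. The median was 49.5% for clustered and 6.7% for variant genes, and 32 clustered genes had more than 50% shared. A read from a shared window cannot be placed by its sequence, and the deposited tables divide it by estimation. These 32 genes held 215.6 ± 2.47 of the 330.9 TPM of all clustered genes, and 16 of them were expressed. Strand use in counting is not given in the sources used here, and all 18 clustered H2A genes overlap an annotated gene on the other strand.

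Of the 6 clustered H1 genes, which encode linker histones, 5 had at most 10% of windows shared and so are the most readily told apart. Hist1h1e had 6.73 TPM in library 1 and 7.88 in library 2, with 32% shared and an exon overlap with Hist1h2be on the same strand. Hist1h1c had 5.96 and 7.80 TPM. These highest clustered H1 genes overlapped each other and stayed below the variant H1f0 in both libraries. Hist1h1b had 1.85 and 3.76 TPM and Hist1h1a 1.74 and 2.55. Hist1h1d had 0.20 and 0.26 TPM over a model of 7425 bases, and the testis gene Hist1h1t 0.19 and 0.09.

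H2A had the highest clustered gene of all. Hist1h2ap (ENSMUSG00000094777.2, chr13:21833026-21833507, minus strand) stood at 70.17 TPM in library 1 and 70.29 in library 2, 40.5% of the clustered H2A sum. Its windows were 93.1% shared, all of them with Hist1h2ao, which was estimated at 0 in both libraries. Hist2h2aa2 had 30.94 and 24.11 TPM with all windows shared, and its near copy Hist2h2aa1 11.68 and 16.15 TPM. The pair together gave 42.62 and 40.26 TPM, so the sum moved less than either gene. Hist1h2ae had 15.95 and 13.10 TPM with 43.2% shared. Hist3h2a, whose extended transcript was shown above, had 6.32 and 7.14 TPM with 31.5% shared, and it overlaps Trim17 on the same strand. Hist2h2ac had 7.10 and 4.30 TPM, Hist1h2ak 4.17 and 1.54, and Hist1h2ab 2.23 and 2.05.

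In 3 H2A genes the maximum likelihood estimate was 0 in one library and above 5 TPM in the other. Hist1h2ai had 0 TPM in library 1 and 30.87 in library 2, and its deposited posterior mean TPM was 3.81 and 19.83. Hist1h2an had 0 and 5.93 TPM, with posterior means of 1.45 and 6.30. Hist1h2ah had 18.96 and 0 TPM, with posterior means of 8.30 and 3.92. The deposited intervals of the TPM overlapped between libraries for all 3, with upper bounds of 11.18, 4.118 and 11.01 TPM in the library at 0. The smaller gene table counted Hist1h2ai at 2 and 5, Hist1h2an at 2 and 2 and Hist1h2ah at 0 and 0. A 0 here is therefore no sign that the gene was silent. Over the first 384 coding bases, up to the stop codon of the shortest model, these 3 genes and Hist1h2ap differ at 7 positions, and the bases after that were not counted. The first 60 coding bases (mm10, sense strand) are shown, with the 4 positions that vary among the genes in capitals, because a 50-base read over most of this stretch would be separated by only these letters:
Hist1h2ah (chr13:22035493-22035552, minus strand): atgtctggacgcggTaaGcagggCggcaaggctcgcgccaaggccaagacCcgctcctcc
Hist1h2ai (chr13:21716422-21716481, plus strand): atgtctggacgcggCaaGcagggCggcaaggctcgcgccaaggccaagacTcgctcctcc
Hist1h2an (chr13:21787159-21787218, minus strand): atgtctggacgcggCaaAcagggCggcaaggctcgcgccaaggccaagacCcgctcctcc
Hist1h2ap (chr13:21833416-21833475, minus strand): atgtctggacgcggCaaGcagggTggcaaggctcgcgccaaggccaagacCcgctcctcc
Summed over 11 Hist1 H2A genes linked by shared windows, the level was 109.1 TPM in library 1 and 123.5 in library 2, a log2 difference of 0.15 in counts. Single members of that set spanned log2 differences from -7.43 to 8.09, with Hist1h2ai and Hist1h2ah at the ends. Hist1h2ap, the largest member, had 0.04 and Hist1h2ab had -0.08, so some members moved less than the sum and others far more.

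**Figure D3:**
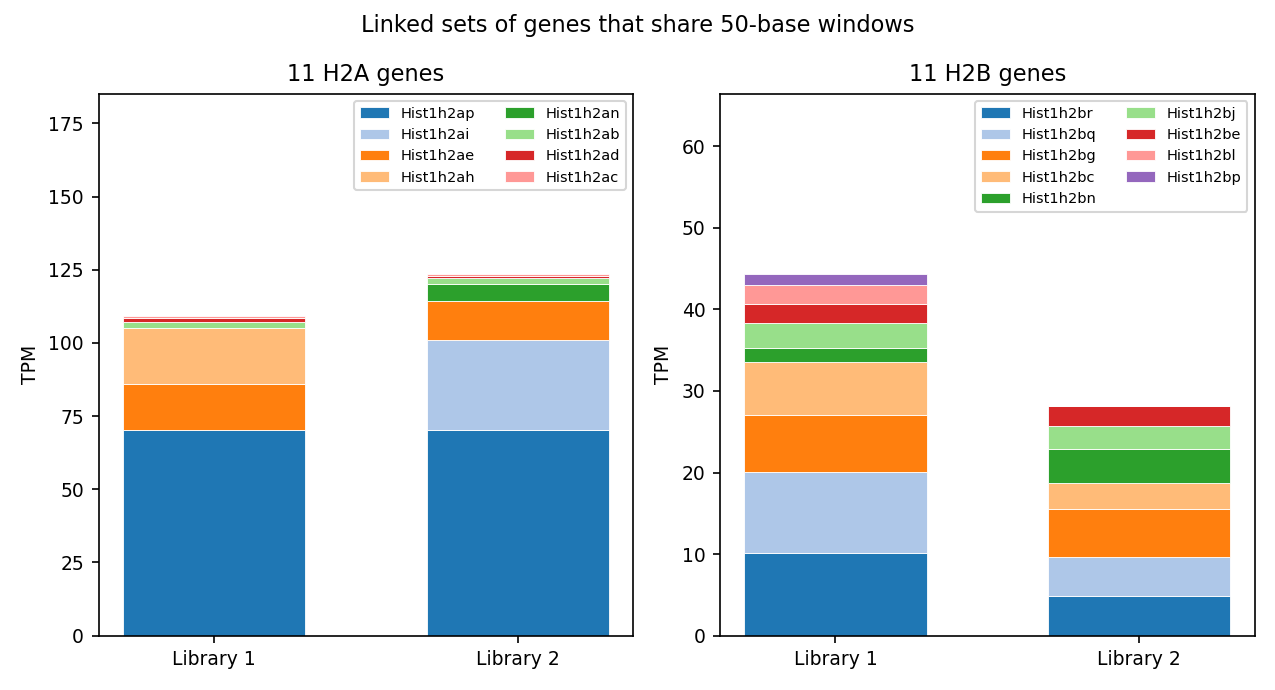
Maximum likelihood TPM in each library, stacked by gene, of the 11 linked Hist1 H2A genes (left) and 11 linked Hist1 H2B genes (right); genes at 0 in both libraries are not drawn. The H2A stack holds 109.1 and 123.5 TPM although Hist1h2ah appears in library 1 and Hist1h2ai and Hist1h2an in library 2, and the H2B stack holds 44.31 and 28.19 TPM.

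H2B genes were low. The highest were Hist1h2br, with 10.09 TPM in library 1 and 4.84 in library 2, and Hist1h2bq, with 9.97 and 4.76, both with more than 88% of windows shared. Hist1h2bg had 7.05 and 5.94 TPM, Hist1h2bc 6.47 and 3.14, and Hist2h2bb 4.66 and 4.69. Hist3h2ba had 3.03 and 3.66 TPM, Hist1h2bj 3.01 and 2.85, and Hist1h2bn 1.72 and 4.17. Hist1h2be, Hist1h2bb and Hist2h2be were expressed at 2.4, 2.05 and 1.235 TPM on average. Of these Hist2h2be shared no window, and it had 1.25 and 1.22 TPM. In Hist1h2be 78.3% of the level was in Hist1h2be-203, annotated as a processed transcript without a coding sequence. Its coding Hist1h2be-202 had 0.48 TPM in library 1 and 0.56 in library 2, and the coding Hist1h2be-201 had 0 in both. The 11 linked Hist1 H2B genes summed to 44.31 TPM in library 1 and 28.19 in library 2, so here the sum of the set was lower in library 2, with a log2 difference of -0.51 in counts.

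Clustered H3 genes had the lowest share expressed, 3 of 12. Hist2h3b had 10.06 TPM in library 1 and 7.38 in library 2, while Hist2h3c1 and Hist2h3c2, which share windows with it, were both at 0. Hist1h3e had 1.85 and 3.05 TPM and Hist1h3h 1.79 and 1.58. The 9 Hist1 H3 genes together gave 5.82 and 6.12 TPM, against 1155 TPM from H3f3b alone.

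Clustered H4 genes had the highest median of the clustered types, 5.83 TPM, and 9 of 13 were expressed. Hist1h4d (ENSMUSG00000061482.7, chr13:23581598-23582735, plus strand) led with 17.49 TPM in library 1 and 17.06 in library 2. Only 10.2% of its windows were shared, and its transcript is of the extended kind. Hist1h4m had 13.29 and 15.88 TPM with 89.8% shared, and its partner Hist1h4n was at 0 in both. Hist1h4k had 6.66 and 12.47 TPM, Hist1h4h 6.57 and 8.04, Hist1h4b 8.44 and 4.01, Hist1h4i 6.95 and 4.99, and Hist1h4c 5.22 and 6.45. Hist2h4, with 1% shared, had 5.00 and 5.28 TPM, and Hist4h4 1.34 and 1.23.

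Levels were also set against the annotated transcript end. The 25 genes with extended transcripts had a median of 2.4 TPM (1.85 in library 1 and 2.43 in library 2) with 14 expressed. The 19 that end at the stem-loop had 1.14 TPM (1.39 and 1.37) with 9 expressed, and the 23 without a stem-loop in the model had 2.8 TPM (1.74 and 1.58) with 12 expressed. The extended class was highest in each library alone, but the class without a stem-loop was highest by the mean of both, so the order rests on how libraries are combined. Among genes with at most 50% of windows shared the medians were 3.34, 0.99 and 0.817 TPM. By posterior mean TPM over all genes of each class they were 2.16, 2 and 2.6 TPM, so the classes lay closer together. The class that ends at the stem-loop held the largest sum, 151.4 ± 2.24 TPM, of which 46.4% was Hist1h2ap alone. The extended class held 93.23 ± 1.94 TPM with no more than 18.5% in any member. Extended models are also longer, with a median of 1138 bases against 476, and shared fewer windows, 24.8% against 65.8% at the median. What part length and sharing have in these levels was not tested.

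H2A and H2B genes often lie head to head. With a gap of at most 500 bases between them, 12 such pairs were found, 175 to 305 bases apart. The H2A gene was higher in both libraries in 4 pairs and the H2B gene in 3. In the remaining 5 the libraries differed in order or both genes were at 0. In the pair of Hist1h2ae (15.95 and 13.10 TPM) and Hist1h2bg (7.05 and 5.94), H2A was higher, and in that of Hist1h2ac (0.40 and 0.55) and Hist1h2bc (6.47 and 3.14), H2B was. By maximum likelihood estimates, levels within a pair thus differed in a steady direction in 7 of the 12. Among these are the pairs of Hist1h2ao, Hist1h2ag and Hist1h2bf, which were estimated at 0 with 93.5, 78.9 and 65.8% of windows shared. Posterior means were above 0 for all of them, as for Hist1h2ao at 1.49 and 1.46 TPM. Their deposited intervals overlapped those of their partners in each library, so the order in these pairs is not settled. Hist1h2ak (4.17 and 1.54 TPM) and Hist1h2bn (1.72 and 4.17) were close on average, with the order turning between libraries.

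Library 2 was set against library 1 for every gene by a two-sided exact binomial test, with Benjamini-Hochberg adjustment over all genes tested. The p-values set the difference between these libraries against counting error alone and leave out any further technical spread. There was no comparison of conditions. Over all genes 25.1% passed the threshold of 0.05, and 8.8% passed it with a difference of 1.5-fold or more. Of the 80 histone genes 54 had enough counts to be tested, and 11 (20.4%) passed, 8 (14.8%) with 1.5-fold. The share that passed was near that of all genes without the fold minimum and above it with the minimum, where clustered genes alone stood at 17.4%. Whether these shares differ was not tested.

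The 3 variants that passed were the most deeply counted, and their differences were small. H3f3a was 1.12-fold, H3f3b 1.05-fold and H2afz 1.04-fold higher in library 2 (exact binomial test with Benjamini-Hochberg adjustment, adjusted p = 1.86e-07, 2.24e-05 and 0.00321). Under edgeR's exact test with the common dispersion of both libraries none of the 8 variants passed, and none had an unadjusted p under 0.05.

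Of the 46 clustered genes tested 8 passed, all by 1.5-fold or more. Hist1h2ai had 0 estimated counts in library 1 and 138.45 in library 2, Hist1h2an 0 and 26.58, and Hist1h2ah 83.91 and 0 (exact binomial test, adjusted p = 7.01e-39, 5.16e-07 and 5.95e-24). The test takes these divisions of shared reads as counts, so its p-values leave out the error of the division, and no fold is given; the posterior means above differ less. Hist1h3d had 11.34 counts in library 1 and 0 in library 2 (adjusted p = 0.00352, exact binomial test), with posterior means of 0.72 and 0.07 TPM. Hist1h2br, Hist1h2bq, Hist1h4b and Hist1h2bc were 2.08-fold, 2.04-fold, 2.05-fold and 2.01-fold lower in library 2 (exact binomial test, adjusted p = 0.0295, 0.044, 0.0418 and 0.00098). For Hist1h2br, Hist1h2bq and Hist1h4b the deposited intervals of the TPM overlapped between libraries, so these folds also leave out the error of the division. For Hist1h2bc they did not, at 4.386 to 7.22 TPM in library 1 and 1.895 to 3.81 in library 2. Nor did they for Hist1h3d, at 0.2897 to 1.181 TPM in library 1 and at most 0.2128 in library 2. Hist1h2br-202 and Hist1h2bq-201, which hold nearly all of their genes' level, had the same estimates, 41.16 counts in library 1 and 20.62 in library 2. The calls of Hist1h2br and Hist1h2bq are thus not separate observations. Of these 8 genes 6 had more than 50% of windows shared, the exceptions being Hist1h3d (24.8%) and Hist1h2bc (30.1%). With edgeR's exact test only Hist1h2ai, Hist1h2an and Hist1h2ah still passed. Of the 11 histone genes that passed, 7 had too few counts in the smaller table to be tested there, and of the 8 clustered ones Hist1h2bc alone could be. None of the 27 histone genes tested there passed by the exact binomial test, H2afz, H3f3a, H3f3b and Hist1h2bc among them, and 2 had an unadjusted p under 0.05.

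**Figure D4:**
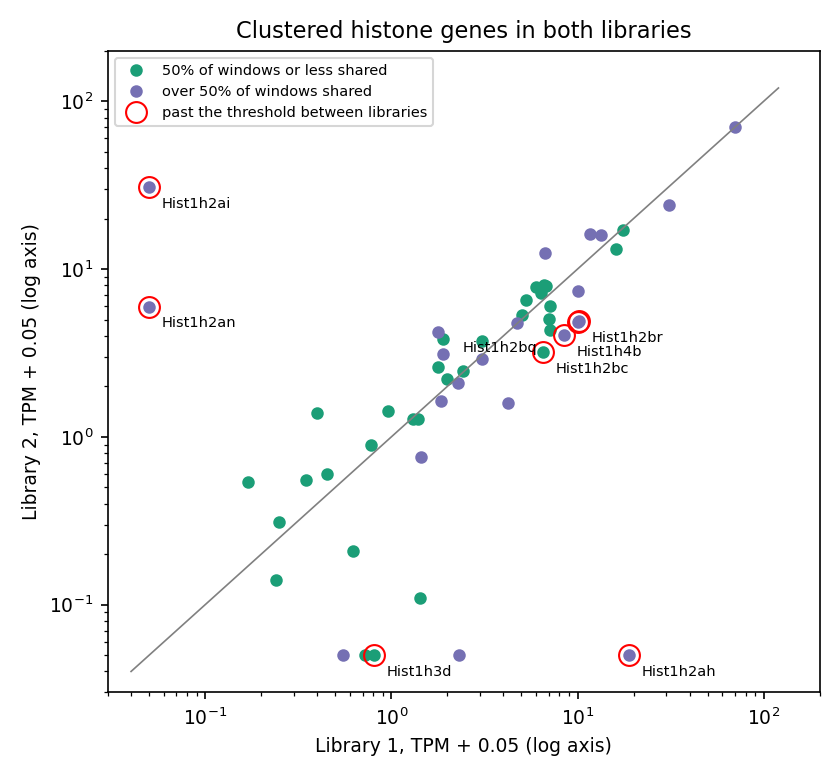
Maximum likelihood TPM + 0.05 of clustered genes above 0 in library 1 (x) and library 2 (y) on log axes, coloured by the percent of shared windows; red rings mark the 8 genes past the threshold of the exact binomial test and the line marks equality. Of the ringed genes Hist1h2ai, Hist1h2an, Hist1h2ah and Hist1h3d lie on the edge at 0 of one library. Hist1h2bl, Hist1h4a and Hist1h3i lie there without a ring, and most other genes lie near the line.

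Each library also has a smaller gene table of whole-number counts made on the GENCODE M4 annotation, with 3742024 counts in library 1 and 3675918 in library 2. After scaling to totals, 12 of 46 histone genes with a mean of 10 counts or more were at least 4-fold lower there in both libraries (26.1%), beside 6.53% of all protein-coding genes. These were 9 of 38 clustered and 3 of 8 variant genes. H2afz had 12740 and 13601 counts in the larger table and 42 and 44 in the smaller one, 78-fold lower after scaling. H3f3a had 4660 and 5353 against 39 and 56, 27.2-fold lower. H3f3b had 17030 and 18327 against 479 and 484, 9.44-fold lower. These 3 genes share windows with 4, 38 and 2 annotated pseudogenes, in 16.9, 11.5 and 5.6% of their windows. H2afv, H2afy and H1f0, which share no window, had log2 values of 0.62, -0.48 and 0.23 for the smaller over the larger table. H2afx and H2afj had -0.15 and 0.84, so these 5 stayed within 4-fold. The median over all 11334 protein-coding genes compared was 0.65, so a value of 0 lies below the usual gene. H2afx and H2afj also share windows with pseudogenes, 3 and 5 of them, in 6.1 and 2.2% of their windows. What part such sharing has in the lower counts was not tested.

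Clustered genes divided by sharing in the same comparison. Of those with more than 50% of windows shared 8 of 17 were 4-fold lower, and of those with less 1 of 21. Hist1h2ap had 378 and 397 counts in the larger table and 0 in both libraries of the smaller one. Hist2h2aa2, Hist2h2aa1, Hist1h4m, Hist1h2br and Hist1h2bq were likewise at 0 there in both libraries. Hist2h3b, Hist1h4k and Hist1h2be had 0 and 1. Hist1h2be was the one gene of the less shared class, and it overlaps Hist1h1e. By contrast Hist1h4d kept 113 and 126 counts and Hist1h1e 85 and 103. In the smaller table Hist1h4d therefore had the highest count of the clustered genes.

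**Figure D5:**
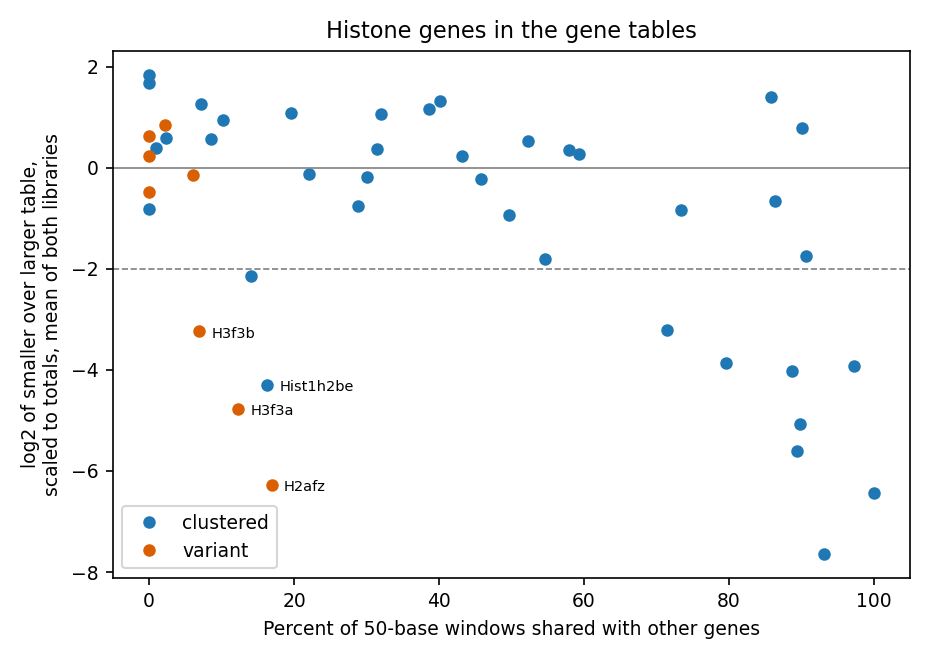
log2 of the smaller over the larger table's count, scaled to totals and averaged over both libraries, against the percent of shared windows for 38 clustered (blue) and 8 variant (orange) genes; the dashed line marks 4-fold lower. Genes below the line lie either above 70% of windows shared or are H2afz, H3f3a, H3f3b and Hist1h2be, apart from Hist1h2ac, which is below it on average but not in both libraries. The median over all protein-coding genes compared, not drawn, is 0.65.

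Genes that act on histone mRNA and histone proteins were present. Of 19 genes for processing and turnover of histone mRNA 18 were expressed (median 30 TPM), and 6 passed the library threshold, all higher in library 1. These counts and those of the next lists stand beside 46.5% of protein-coding genes expressed and 25.1% of all genes past the threshold. The highest were Ybx1, an RNA-binding protein, at 115.4 ± 3.833 TPM, Slbp, which binds the stem-loop, at 108.8 ± 5.466 TPM, and Cpsf3, the nuclease that cuts the pre-mRNA, at 104.5 ± 1.563 TPM. Zfp473 was lowest with 0.135 TPM. Sympk, a scaffold of the cleavage complex, alone passed with 1.5-fold, at 7.92 TPM in library 1 and 4.73 in library 2. Slbp mRNA was above the summed H2B, H3 or H4 level of clustered genes in both libraries and below their summed H2A level, which was 169.6 and 177.2 TPM.

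Among 26 histone chaperones, which carry histones to and from DNA, 25 were expressed (median 39.7 TPM), and 7 passed, 3 of them higher in library 2. Npm1 stood at 1042 ± 15.7 TPM, Atrx, which with Daxx places H3.3, at 245.8 ± 3.415 and the chaperone subunit Rbbp4 at 242.8 ± 12.28. Chaf1a, a subunit of the complex that deposits newly made H3 and H4 at forks, was lowest with 0.325 ± 0.07778 TPM. Asf1a alone passed with 1.5-fold, at 6.93 TPM in library 1 and 7.70 in library 2, with a log2 difference of 0.61 in counts.

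S phase genes were expressed in 18 of 19 cases (median 19.9 TPM), and 7 passed, 3 higher in library 2. Pcna, the sliding clamp of DNA replication, had 106 ± 4.052 TPM, Mcm6 70.66 ± 0.1202 and Mcm4 45.58 ± 1.973, both of the replicative helicase. E2f1 was lowest with 0.12 and 0.31 TPM. Of histone genes outside the naming rule, Cenpa, the H3 variant of centromeres, had 46.65 TPM in library 1 and 33.76 in library 2, above every clustered H3 gene. The germ cell linker genes H1foo and Hils1 had 0.07 and 0 TPM in library 1 and 0 in library 2.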

How the data were processed

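The members and gene lists were chosen with earlier results of these data known. PolyA plus RNA-seq of 2 technical libraries from 1 biological replicate was analysed, as 1 group. Per the file headers, the deposited larger gene table and transcript table carry RSEM column names; annotation (GENCODE M21) and build (mm10) are those of the deposited texts. Their expected counts are the authors' estimates without scaling, rounded here for tests. The deposited TPM values, maximum likelihood and posterior mean, were scaled by the authors over all features. The deposited percent values give each transcript's share of a gene's TPM. The deposited smaller table holds whole-number counts on GENCODE M4; how it was counted (tool, strand, multi-mapping reads) is not given in the sources used here, nor is the aligner.

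Genes were matched by identifier. Stem-loops, AATAAA and shared 50-base windows were searched in GENCODE M21 transcripts with Python 3.11.15. Expressed means at least 1 TPM in both libraries. Libraries were compared by a two-sided exact binomial test (scipy 1.17.1) on the rounded counts, for a summed count of 10 or more, with TMM sizes from edgeR 4.0.16, Benjamini-Hochberg adjustment at 0.05 and a prior count of 0.5 in log2 ratios. The test was tried on simulated counts with counting error only. That setting has no further spread between libraries and no division of shared reads, so it does not bear on either. With 1 library a side no dispersion per gene can be fitted, so the binomial p-values are set against counting error only. Named genes are the expressed members, those past the threshold, those 4-fold apart between tables, the highest of each type, and the 3 highest, the lowest and those past the threshold with 1.5-fold of each list. Alternatives were posterior mean TPM, each library alone, other thresholds and filters, DESeq2 1.42.0 size factors, unscaled totals, edgeR's exact test and the smaller table. Protein sequences and a genome were not used here.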

Additional observations from a re-analysis of the deposited data

How the results depend on the processing

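No paired analysis was possible because all samples belong to 1 group. With either library left out 39 clustered genes and 8 variants counted as expressed, against 35 and 8 with both. The clustered number was 44 by posterior mean TPM, 19 among genes with at most 50% of windows shared and 15 at 5 TPM. The clustered median ranged from 1.58 to 1.74 TPM with a library left out and was 1.29 TPM among the less shared genes; the variant median was 13.9 by posterior mean TPM. By end class, leaving out a library gave medians from 1.85 to 2.43 (extended), 1.37 to 1.39 (ending at the stem-loop) and 1.58 to 1.74 TPM (no stem-loop). Among less shared genes these were 3.34, 0.99 and 0.817 TPM. By posterior mean they were 2.16 TPM for the extended class, 2 TPM for the class ending at the stem-loop and 2.6 TPM for that without one. A limit of 100 bases past the stem-loop, chosen after seeing the data, gave 1.09 TPM for the class ending there. The clustered share of counts was 0.00975% among less shared genes, an alternative also chosen after seeing the data, and the variant share was 0.052% in the smaller table. The 4384 genes that differed between libraries became 349 with edgeR's exact test, 1537 with a 1.5-fold minimum and 1172 in the smaller table. Of the 11 histone genes 3 passed with edgeR's test, all clustered, and 0 of the 3 variants did; 0 variants passed with a 1.5-fold minimum. By the counts of the smaller table, 0 histone genes passed, 0 clustered and 0 variant, but 7 of the 11, all clustered, had too few counts to be tested there. All 11 kept their calls with DESeq2 size factors and unscaled totals, and 9 did without a count filter, which lost Hist1h2bq and Hist1h4b. Of 47 named levels, posterior mean TPM moved 19 beyond the SD and lowered 42. The cause of these shifts was not tested, apart from those set by fewer genes or samples. The depth limits genes near 3 counts, and sequence shared between copies limits single clustered genes.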
